A study of Mus musculus with 4 samples.

Results

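The genes described here are 43 mouse genes of matrix breakdown, namely 18 Adamts genes, 18 Mmp genes, the 4 Timp genes, and Adam10, Adam17 and Htra1. They were listed by name, and were found by their GENCODE symbols among 50686 gene identifiers counted in the hip and 54838 counted in the knee. Each had 1 identifier in both count tables.

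RNA from articular cartilage of mice was sequenced as poly-A libraries, 4 in all, with 1 library per joint and condition, to compare joints with and without deletion of Cbfb. Cbfb encodes Cbfβ, the partner subunit of the Runx transcription factors. The hip control library came from Cbfβf/f mice with no Cre, whose treatment is labelled as none. The study's methods say that such mice received either tamoxifen (TMX) or oil, so whether these mice were injected is not settled here. The other hip library came from Cbfβf/f;Col2α1-CreERT mice injected with TMX, so in the hip the deletion cannot be told apart from Cre, nor, going by the labels, from TMX. In the knee both libraries came from Cbfβf/f;Aggrecan-CreERT mice. The control mice received oil in place of TMX, so in the knee the deletion cannot be told apart from TMX. Floxed Cbfb alleles were shared by all 4 libraries, and the knee libraries also shared the Cre. Hip mice were 6 weeks or 2 months old, since the descriptions differ, and received TMX from 2 weeks of age. Knee mice were 12 weeks old and received TMX at 6 or 8 weeks, where the descriptions differ again. Both Cre lines act in cells that use a cartilage promoter, so other cells of the tissue keep Cbfb. The deposit's note on extraction names osteoblasts, while every tissue label gives articular cartilage. The study's discussion says that the knee samples held bone as well as articular cartilage, and the hip samples articular cartilage alone. The study's methods give a number of mice per group and experiment but do not say how many went into a library. The 2 libraries of TMX-injected Cre mice are called the TMX libraries below.

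The ADAMTS and MMP enzymes are zinc-dependent metalloproteinases that are made as inactive precursors and cut proteins outside the cell. Aggrecanases of the ADAMTS family cut the proteoglycan aggrecan, and collagenases of the MMP family cut the triple helix of collagen, the events by which cartilage matrix is lost in osteoarthritis. TIMPs are small secreted proteins that occupy the active site of these enzymes, and TIMP3 also inhibits aggrecanases and ADAM sheddases.

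Promoters bear on this gene set because Cbfβ works through Runx factors. The bases before the RefSeq transcription start are shown for Mmp13 and Mmp14, which were lower in the knee TMX library, for Mmp8 and Mmp3, which differed between the hip libraries, and for Timp3, which was higher in both TMX libraries. Each stretch has 250 bases on the plus strand of GRCm38.p6, written 5′ to 3′ and ending at the base before the start. Capitals mark matches to the Runx core letters TGTGGT or TGCGGT and to the AP-1 letters TGANTCA, searched on both strands, so that ACCACA is TGTGGT read on the other strand.
Mmp13, chr9:7272264-7272513: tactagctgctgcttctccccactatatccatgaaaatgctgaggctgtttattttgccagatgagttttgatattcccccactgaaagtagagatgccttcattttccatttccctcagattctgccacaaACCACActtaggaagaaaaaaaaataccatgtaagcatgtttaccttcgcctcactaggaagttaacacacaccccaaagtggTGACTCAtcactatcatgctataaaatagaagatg
Mmp14, chr14:54431348-54431597: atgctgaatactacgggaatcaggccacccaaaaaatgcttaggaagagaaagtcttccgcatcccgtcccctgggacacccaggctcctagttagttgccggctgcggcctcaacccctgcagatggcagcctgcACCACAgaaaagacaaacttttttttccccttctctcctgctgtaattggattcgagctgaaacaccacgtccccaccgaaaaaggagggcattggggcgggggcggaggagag
Mmp8, chr9:7558179-7558428: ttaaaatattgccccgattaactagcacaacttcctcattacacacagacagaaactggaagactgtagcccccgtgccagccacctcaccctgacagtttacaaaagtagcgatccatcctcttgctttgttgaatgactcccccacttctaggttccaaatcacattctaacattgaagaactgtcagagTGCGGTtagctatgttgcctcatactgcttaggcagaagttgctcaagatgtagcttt
Mmp3, chr9:7445572-7445821: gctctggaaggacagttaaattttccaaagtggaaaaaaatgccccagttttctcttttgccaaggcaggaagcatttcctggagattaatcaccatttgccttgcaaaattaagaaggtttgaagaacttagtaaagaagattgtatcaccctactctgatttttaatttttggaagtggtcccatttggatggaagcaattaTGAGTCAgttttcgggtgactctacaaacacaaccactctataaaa
Timp3, chr10:86300162-86300411: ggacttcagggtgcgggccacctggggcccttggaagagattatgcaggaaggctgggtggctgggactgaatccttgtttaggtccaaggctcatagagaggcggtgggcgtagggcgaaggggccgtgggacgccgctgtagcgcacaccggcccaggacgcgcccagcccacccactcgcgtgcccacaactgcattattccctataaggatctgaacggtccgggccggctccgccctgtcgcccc

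The Runx letters began 118 bases before the start of Mmp13, 114 before that of Mmp14 and 58 before that of Mmp8. AP-1 letters began 35 bases before the start of Mmp13 and 46 before that of Mmp3. The stretch before Timp3 held neither. RefSeq promoters, from 250 bases before to 50 after a start, were given for 29 of the 43 genes. Of these 29 genes, 8 held the Runx letters, a share of 27.6%. They were Adamts2, Htra1, Mmp8, Mmp11, Mmp13, Mmp14, Mmp15 and Mmp23. AP-1 letters were found for 4 genes, Mmp3, Mmp10, Mmp12 and Mmp13, a share of 13.8%. Some genes have several promoters, and by promoter the Runx letters were in 25.8% of the 31 of these genes beside 22.4% of all 32851, and the AP-1 letters in 12.9% beside 7.81%. A match of letters does not show a bound site.

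Counts on genes ranged from 34264456 to 38473120 per library. A count of 3, taken as the limit that a count of 0 allows, was 0.0780 to 0.0876 CPM, counts per 1000000 counts on genes. Cbfb itself had 2548 counts in the hip control and 2946 in the hip TMX library, and 3796 and 4572 in the knee. On the scale defined below, its log2 ratios, with 95% counting intervals, were 0.41 (0.33 to 0.48) in the hip and -0.07 (-0.13 to -0.01) in the knee. Counts per gene cannot show whether floxed exons were lost. The labelled tissue was checked against fixed marker lists. A list of 16 chondrocyte genes held 0.0260% of reads in the hip control and 0.0106% in the hip TMX library, with 354 and 228 counts of Col2a1, while 26 skeletal muscle genes held 23.1% and 23.3%. In the knee the chondrocyte list held 0.641% in the control and 0.315% in the TMX library, the muscle list 1.67% and 3.56%, 9 erythroid genes 9.99% and 4.94%, and 12 neutrophil genes 3.59% and 2.91%. No listed marker of these groups was at 0 in any library. In bulk libraries, fewer cells of a type and less RNA per cell cannot be told apart. With 1 library per condition there is no replicate error, no test and no p-value, and each ratio below compares a single pair of libraries.

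The matrix proteases and their inhibitors were a small share of the RNA in each joint, and different members led in the hip and the knee. All 43 genes together held 0.0706% of reads in the hip control and 0.0560% in the hip TMX library. In the knee these shares were 0.356% and 0.311%. Compared per length as TPM, in which counts are divided by the length of the union of exons and scaled to a sum of 1000000, Timp2 was the highest of the 43 genes in both hip libraries, at 165 TPM in the control and 84.2 TPM in the TMX library. Mmp2, a gelatinase of connective tissue cells, followed in the hip control at 117 TPM, and Timp3 followed in the hip TMX library at 50.7 TPM. In the knee control Mmp13, the collagenase of hypertrophic chondrocytes and osteoblasts, led at 844 TPM, ahead of Mmp9 at 743 TPM and Mmp8 at 410 TPM. In the knee TMX library the order was Mmp9 at 755 TPM, Mmp8 at 445 TPM and Mmp13 at 328 TPM. Part of this order depends on the length used. With the median transcript length in its place, a choice made after seeing the data, Timp2 still led in the hip control at 97.8 TPM, but Timp3 led in the hip TMX library at 239 TPM, ahead of Timp2 at 51.6 TPM. By that length Mmp9 led in both knee libraries, at 1135 and 1188 TPM, and Mmp13 had 392 and 157 TPM. The median transcript length is 849 bases for Timp3 and 1125 for Mmp9, beside 8146 and 3703 for their unions of exons. Their ranks by that length rest on these short values.

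**Figure D1:**
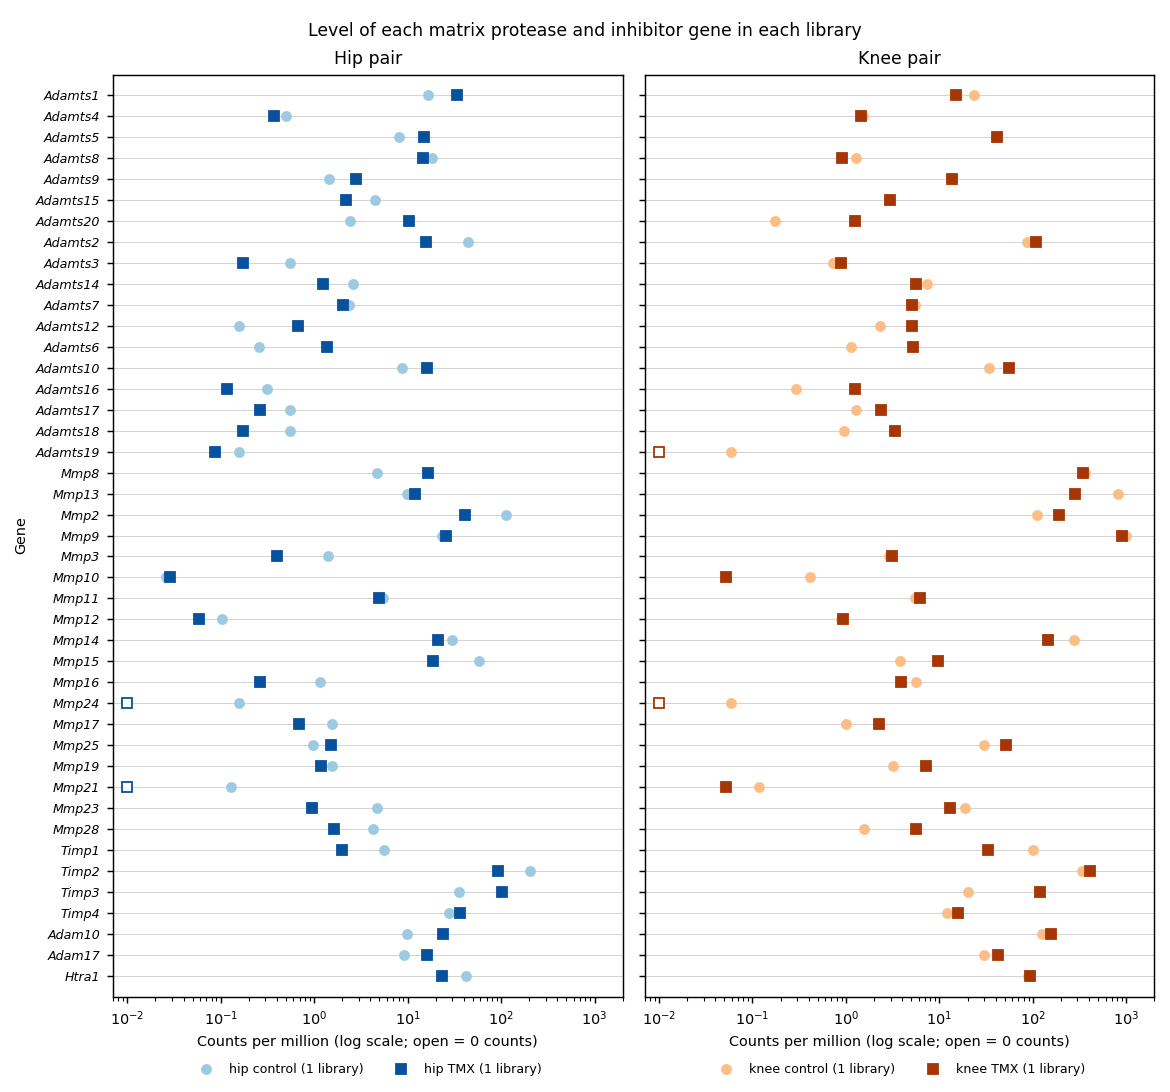
CPM (log scale) of the 43 genes in the hip libraries (left) and the knee libraries (right), with circles for control and squares for TMX. Each point is 1 library, and open symbols at the left edge are genes with 0 counts, namely Mmp21 and Mmp24 in the hip TMX library and Adamts19 and Mmp24 in the knee TMX library.

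In each joint the TMX library was set against its control as a log2 ratio of TMM-scaled counts, with 0.5 added to each count. A gene was called when its pair of libraries held 10 counts or more, its 95% Clopper-Pearson interval excluded 0 and its log2 ratio was 1 or more in either direction. These intervals cover counting error only. In the hip pair 38 of the 43 genes had enough counts, and 20 were called, 7 higher and 13 lower in the TMX library. Among all 19856 genes tested in the hip, 36.5% were called, 20.2% higher and 16.3% lower. The median log2 ratio of the 38 genes was -0.34, beside 0.01 over all genes. In the knee pair 40 genes had enough counts and 11 were called, 7 higher and 4 lower, where 15.8% of all 21131 genes were called, 9.00% higher and 6.81% lower. Their median was 0.05, beside 0.02 over all genes. Under scaling by library size 13 genes were called in the knee, 10 higher and 3 lower, a setting that moved the median of all knee genes to 0.20.

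**Figure D2:**
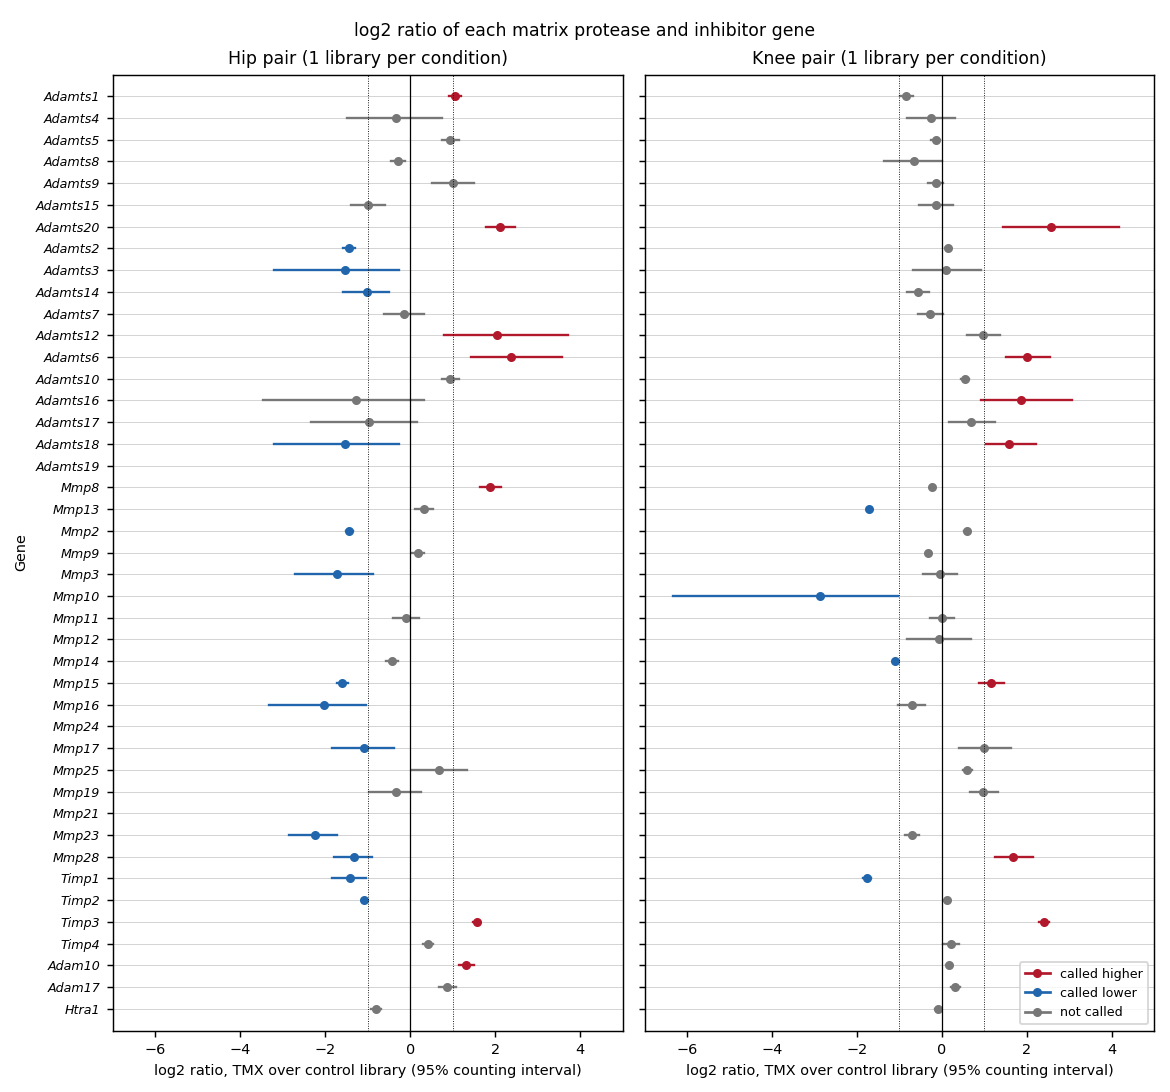
log2 ratio of each gene, TMX over control library, in the hip pair (left) and the knee pair (right), 1 library per condition, with the 95% counting interval as a bar and dotted lines at -1 and 1. Red points were called higher and blue points lower, grey points were not called, and genes under 10 counts over a pair have no point. Timp3, Adamts6 and Adamts20 lie to the right and Timp1 to the left in both panels.

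Among the 7 aggrecanases and versicanases, Adamts20 was called higher in both TMX libraries, and no other member was called in both joints. Adamts20, a versicanase known from pigment cell migration, had 94 counts in the hip control and 356 in the hip TMX library, and 6 and 48 in the knee. For Adamts20 the log2 ratio was 2.11 in the hip, with a 95% counting interval of 1.79 to 2.46 (intervals stand in parentheses from here on), and 2.56 (1.43 to 4.18) in the knee. Both ratios were among the higher ones of their pair, although the knee values rest on few counts.

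Adamts5 is the main aggrecanase of mouse cartilage. It had 311 counts in the hip control and 521 in the hip TMX library, a log2 ratio of 0.94 (0.74 to 1.15), just under the limit for a call. In the knee it had 1388 and 1582 counts, a log2 ratio of -0.15 (-0.26 to -0.05), which was 0.03 when scaled by library size. Ratios also followed transcript length in both pairs and GC content in the hip pair. After removal of the trend over both, the ratio of Adamts5 was 0.32 in the hip and -0.37 in the knee. Adamts4, the inducible aggrecanase, was low in every library, with 19 and 13 counts in the hip pair and 52 and 55 in the knee pair. Its interval held 0 in both joints, at -1.49 to 0.74 in the hip and -0.83 to 0.32 in the knee, so these counts are too few to show a difference.

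Adamts1, the neighbour of Adamts5 on chromosome 16 of GRCm39 (85590579 to 85600009, beside 85653061 to 85698716), had 642 counts in the hip control and 1164 in the hip TMX library. It was called higher in the hip, with a log2 ratio of 1.06 (0.92 to 1.20), a call that was lost under DESeq2 size factors (0.99) and after trend removal (0.92). In the knee the direction was the other way, from 813 to 576 counts, a log2 ratio of -0.84 (-0.99 to -0.68). Adamts9, which cuts versican and aggrecan, had 55 and 96 counts in the hip, a log2 ratio of 1.00 that fell short of the limit before rounding, and 460 and 525 in the knee, a log2 ratio of -0.15 (-0.33 to 0.03). Adamts8 and Adamts15 lie side by side on chromosome 9. Adamts15 had 171 and 75 counts in the hip, a log2 ratio of -0.99 (-1.40 to -0.59), and Adamts8 had 709 and 504, a log2 ratio of -0.29 (-0.46 to -0.13). In the knee Adamts15 had 98 and 113 counts and Adamts8 had 44 and 35, and neither was called. As a group, 2 of 7 were called higher and none lower in the hip (median 0.94), and 1 of 7 was called higher and none lower in the knee (median -0.15). The shares called, 28.6% in the hip and 14.3% in the knee, were not above the 36.5% and 15.8% of all genes.

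The 3 procollagen N-propeptidases, which trim the amino end of fibrillar procollagens, were all called lower in the hip TMX library, beside 16.3% of all genes, and none was called in the knee, beside 15.8%. Adamts2 had 1722 counts in the hip control and 550 in the hip TMX library, a log2 ratio of -1.45 (-1.59 to -1.31). Adamts14 had 100 and 43 counts, a log2 ratio of -1.01 (-1.57 to -0.49), and Adamts3 had 21 and 6, a log2 ratio of -1.53 (-3.21 to -0.25). The call of Adamts14 was lost with 5 counts added (-0.93) and after trend removal (-0.84). In the knee Adamts2 had 2973 and 4166 counts, a log2 ratio of 0.15 (0.08 to 0.22) that was -0.12 with the trend removed, while Adamts14 had 252 and 216 and Adamts3 25 and 34. Several marker lists held genes called lower in the hip as well, again beside 16.3% of all genes. Of 12 fibroblast and synovial lining genes, 6 were called lower and none higher in the hip, and their share of counts was 0.106% in the control and 0.0553% in the TMX library. Of 6 tendon genes, 4 were called lower, with shares of 0.0472% and 0.0117%. Of 12 osteoblast and osteocyte genes, 6 were called lower and 1 higher, with shares of 0.0899% and 0.0198%. In the knee no fibroblast or tendon gene was called, and the part of these cells in the ADAMTS ratios was not tested.

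Both fibrillin-linked members and Adamts12 had ratios above 0 in both joints. Adamts6, which acts in the microfibril network, had 10 counts in the hip control and 47 in the hip TMX library, a log2 ratio of 2.38 (1.43 to 3.58) that was 1.37 with the trend removed, and 39 and 199 in the knee, a log2 ratio of 2.0 (1.51 to 2.55). Its close relative Adamts10 had 332 and 558 counts in the hip pair and 1163 and 2141 in the knee pair, with log2 ratios of 0.95 (0.75 to 1.15) and 0.54 (0.44 to 0.65), neither of them called. Adamts12, which cuts COMP, had 6 and 23 counts in the hip, a log2 ratio of 2.05 (0.80 to 3.72), and 79 and 195 in the knee, where its log2 ratio of 0.96 (0.58 to 1.36) was under the limit and became 1.14 when scaled by library size. Adamts7, the other COMP-cleaving member, had 90 and 71 counts in the hip pair and 187 and 196 in the knee pair, and both of its intervals held 0.

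The 4 ADAMTS genes of less known substrate were low throughout. Adamts18 was called in both joints in opposite directions, from 21 to 6 counts in the hip, a log2 ratio of -1.53 (-3.21 to -0.25), and from 33 to 127 in the knee, a log2 ratio of 1.59 (1.04 to 2.20). Adamts16 had 12 and 4 counts in the hip, with an interval that held 0 (-3.48 to 0.33), and was called higher in the knee from 10 to 48 counts, a log2 ratio of 1.87 (0.92 to 3.07). Adamts17 was not called in either joint. Adamts19 had 6 and 3 counts in the hip pair and 2 and 0 in the knee pair, too few for a ratio.

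Of the collagenases, Mmp13 was lower in the knee TMX library and Mmp8 was higher in the hip TMX library. Mmp13 had 27871 counts in the knee control and 10772 in the knee TMX library, 813 and 282 CPM. The log2 ratio was -1.71 (-1.74 to -1.68), 3.27-fold lower, and -1.70 after trend removal. Hip values of Mmp13 were far smaller, with 377 and 411 counts, a log2 ratio of 0.32 (0.12 to 0.53). That hip direction turned to -0.65 (-0.85 to -0.44) after trend removal. In the knee, Mmp13 was lower together with other genes of the mineralizing zone and bone. Beside 6.81% of all genes called lower there, 4 of 6 hypertrophic chondrocyte genes were called lower, with 0.370% of counts in the control and 0.231% in the TMX library. Of 12 osteoblast and osteocyte genes 5 were called lower and 1 higher (1.11% and 0.595%), and of 16 chondrocyte genes 12 were called lower and none higher. Their part in the ratio of Mmp13 was not tested.

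Mmp8, the collagenase stored in neutrophil granules, had 179 counts in the hip control and 576 in the hip TMX library, a log2 ratio of 1.88 (1.64 to 2.13) that was 1.32 with the trend removed. In the knee it had 12286 and 13277 counts, a log2 ratio of -0.23 (-0.26 to -0.19). Of 12 neutrophil genes, 3 were called higher in the hip (Csf3r, Cxcr2 and Retnlg) and none lower, a share of 25% near the 20.2% of all genes called higher. The list held 0.0475% of the counts in the control and 0.0571% in the TMX library. Over the whole list 7 of the 12 hip log2 ratios were above 0, and they ranged from -0.85 to 1.81. Whether neutrophils carry the hip ratio of Mmp8 was not tested.

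Mmp13 and Mmp8 stand at the outer ends of a row of 5 members on chromosome 9 of GRCm39, from the start of Mmp13 at 7272514 through Mmp12, Mmp3 and Mmp10 to the end of Mmp8 at 7568487. These neighbours did not share a direction. Mmp3, the stromelysin that also activates other MMPs, had 54 and 14 counts in the hip, a log2 ratio of -1.71 (-2.71 to -0.88), and 98 and 120 in the knee, with an interval that held 0 (-0.44 to 0.35). Mmp10, a second stromelysin, had 1 count in each hip library and 14 and 2 in the knee, a log2 ratio of -2.88 (-6.33 to -1.02) that rests on very few reads. Mmp12, the macrophage elastase, had 4 and 2 counts in the hip pair and 30 and 36 in the knee pair. Mmp11, on chromosome 10, had 210 and 171 counts in the hip pair and 188 and 237 in the knee pair, and both intervals held 0. After trend removal its hip log2 ratio was 0.39 (0.09 to 0.69).

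The gelatinases went different ways by joint. Mmp2 had 4374 counts in the hip control and 1410 in the hip TMX library, a log2 ratio of -1.44 (-1.52 to -1.35). In the knee it had 3814 and 7212 counts, a log2 ratio of 0.58 (0.52 to 0.64), so it was higher beyond its counting interval but not called. The fibroblast list held 0.106% and 0.0553% of counts in the hip pair and 0.225% and 0.322% in the knee pair. Its 12 genes did not share a direction, with 4 ratios above 0 and 8 below in the hip, and 7 above and 5 below in the knee, from -0.53 to 0.80. Their part in the ratios of Mmp2 was not tested. Mmp9, the gelatinase of osteoclasts and neutrophils, was called in neither joint, with 903 and 897 counts in the hip pair and 34001 and 34345 in the knee pair. Its log2 ratios were 0.19 (0.05 to 0.32) and -0.32 (-0.35 to -0.30), and after trend removal 0.79 and -0.12. Trend removal placed Mmp9 by a median transcript length of 1125 bases, beside 3703 for its union of exons. Of 10 osteoclast genes 5 were called lower and none higher in the knee, where 6.81% of all genes were called lower, among them Acp5 at -1.52 and Ctsk at -1.43.

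Membrane-type MMPs are anchored at the cell surface, and MMP14 activates proMMP2 there. Mmp14 was called lower in the knee, from 9536 to 5569 counts, a log2 ratio of -1.12 (-1.16 to -1.07). This call was lost when scaled by library size (-0.93) and with the trend removed (-0.90), both still on the lower side. In the hip Mmp14 had 1138 and 736 counts, a log2 ratio of -0.43 (-0.57 to -0.30), which turned to 0.23 (0.09 to 0.36) with the trend removed. Both trend-removed values of Mmp14 rest on a median transcript length of 1163.5 bases, beside 6166 for its union of exons. Mmp15 was called in opposite directions, from 2251 to 648 counts in the hip, a log2 ratio of -1.60 (-1.73 to -1.47), and from 130 to 367 in the knee, a log2 ratio of 1.15 (0.87 to 1.46). The knee call of Mmp15 was lost with the trend removed (0.91). Mmp16 had 44 and 9 counts in the hip, a log2 ratio of -2.03 (-3.31 to -1.04) that was -2.91 with the trend removed, and 193 and 149 in the knee, -0.71 (-1.03 to -0.40).

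The GPI-anchored pair differed as well. Mmp17 had 59 and 24 counts in the hip, a log2 ratio of -1.08 (-1.85 to -0.39), and 34 and 86 in the knee, a log2 ratio of 0.99 (0.41 to 1.62) that reached 1.17 when scaled by library size. In the hip the call of Mmp17 was lost with 5 counts added (-0.94) and with the trend removed (-0.89). Mmp25, known from neutrophils, had 37 and 52 counts in the hip pair and 1035 and 1978 in the knee pair, log2 ratios of 0.68 (0.05 to 1.34) and 0.59 (0.49 to 0.70). Mmp24 had 6 counts in the hip control and 2 in the knee control. It had 0 in both TMX libraries, which allows up to 0.0867 and 0.0785 CPM.

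Of the other MMPs, Mmp23 and Mmp28 were called lower in the hip. Mmp23 had 182 and 33 counts there, a log2 ratio of -2.25 (-2.85 to -1.72) that was -1.58 with the trend removed, and 638 and 496 in the knee, a log2 ratio of -0.70 (-0.87 to -0.53). Mmp28, known as epilysin, had 165 and 57 counts in the hip, a log2 ratio of -1.33 (-1.80 to -0.89) that was -0.89 with the trend removed. In the knee Mmp28 was called higher, from 53 to 215 counts, a log2 ratio of 1.67 (1.24 to 2.14). Mmp19 had 60 and 41 counts in the hip pair and 110 and 274 in the knee pair, where its log2 ratio of 0.97 (0.65 to 1.31) was under the limit and became 1.15 when scaled by library size. Mmp21 had 5 and 0 counts in the hip pair and 4 and 2 in the knee pair. Of the 18 Mmp genes, 14 had enough counts in the hip, where 1 was called higher and 7 lower (median -0.76), beside 20.2% higher and 16.3% lower of all genes. In the knee 16 had enough counts, and 2 were called higher and 3 lower (median -0.06), beside 9.00% and 6.81%.

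The TIMPs changed in make-up in both joints, with Timp3 higher and Timp1 lower in each TMX library. Timp3 had 1366 counts in the hip control and 3516 in the hip TMX library, and 692 and 4596 in the knee. These gave log2 ratios of 1.56 (1.47 to 1.65) in the hip and 2.39 (2.28 to 2.51) in the knee, or 2.95-fold and 5.25-fold. After trend removal these log2 ratios were 2.10 and 2.65.

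Timp1, the inducible inhibitor, had 214 and 69 counts in the hip, a log2 ratio of -1.43 (-1.85 to -1.04), and 3404 and 1263 in the knee, a log2 ratio of -1.77 (-1.86 to -1.68). The hip call of Timp1 was lost with the trend removed (-0.94), while the knee value became -1.51. Timp2, which also takes part in proMMP2 activation by MMP14, had 7789 and 3200 counts in the hip, a log2 ratio of -1.09 (-1.15 to -1.03) that was -0.91 with the trend removed. In the knee it had 11418 and 15606 counts, a log2 ratio of 0.11 (0.08 to 0.15), or -0.07 with the trend removed. Timp4 had 1069 and 1253 counts in the hip pair and 410 and 599 in the knee pair, log2 ratios of 0.43 (0.31 to 0.55) and 0.21 (0.02 to 0.39), and was called in neither.

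Timp1, Timp3 and Timp4 each lie inside a synapsin gene on the opposite strand, and whether the counting used strand is not given in the sources used here. Against Timp1 and Timp3 these genes had few reads, with 4 to 50 counts for Syn1 and 11 to 23 for Syn3 over the 4 libraries. Syn2, around Timp4, had 37 and 132 counts in the hip pair and 13 and 27 in the knee pair. Mmp11 overlaps a gene with far more reads, Chchd10, which had 15002 and 4765 counts in the hip pair, so the low counts of Mmp11 are the less certain. Beside Timp3, and beside 9.00% of all knee genes called higher, 3 of 6 superficial zone genes were called higher and none lower in the knee (0.0674% and 0.183% of counts), and 16 of 26 muscle genes were called higher and none lower. In the hip 20.2% of all genes were called higher and 16.3% lower. There 1 of these superficial zone genes was called higher and 1 lower (0.0433% and 0.0394%), and 3 of the muscle genes were called higher and 3 lower. Of 9 adipocyte genes 3 were called higher in the knee and none lower, and 3 higher and 2 lower in the hip. The part of these cells in the ratio of Timp3 was not tested.

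By TPM, the families were made up differently in the libraries. Within the TIMPs, Timp3 took 7.76% of the TPM in the hip control and 32.1% in the hip TMX library, and 1.92% and 11.8% in the knee. Timp2 took 80.8% and 53.3% in the hip pair and 57.7% and 73.1% in the knee pair. Timp1 held 39.2% in the knee control and 13.5% in the knee TMX library. Among the Mmp genes of the knee, Mmp13 took 37.3% in the control and 17.8% in the TMX library, while Mmp9 took 32.9% and 41.0%. In the hip Mmp2 took 49.2% and 29.0%, and Mmp8 took 2.93% and 17.3%. Within the Adamts genes, Adamts1 took 20.4% and 39.2% in the hip pair, and 17.8% and 9.92% in the knee pair. The summed TPM of TIMPs over that of MMPs and ADAMTS was 0.699 in the hip control and 0.702 in the hip TMX library, and 0.154 and 0.202 in the knee. These shares and ratios depend on the length used, which for Timp3 is 8146 bases by the union of exons and 849 by median transcript length. By median transcript length the ratio of TIMPs to proteases was 0.834 and 1.57 in the hip pair and 0.135 and 0.221 in the knee pair. Timp3 then took 36.7% and 74.8% of the TIMPs in the hip pair and 10.3% and 47.6% in the knee pair, and Timp2 took 49.6% and 16.1% and, in the knee pair, 40.4% and 38.3%. Timp1 held 47.5% and 12.2% in the knee pair. Within the Mmp genes of the knee, Mmp13 then took 18.3% and 8.17% and Mmp9 53.1% and 61.9%, while in the hip Mmp2 took 34.4% and 18.2% and Mmp8 1.96% and 10.3%. Adamts1 took 18.5% and 35.2% of the Adamts TPM in the hip pair. The share of Timp2 in the knee thus changed direction with the length. So did that of Timp4 in the hip, which was 6.39% and 12.03% by the union of exons and 8.37% and 7.76% by transcript length.

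**Figure D3:**
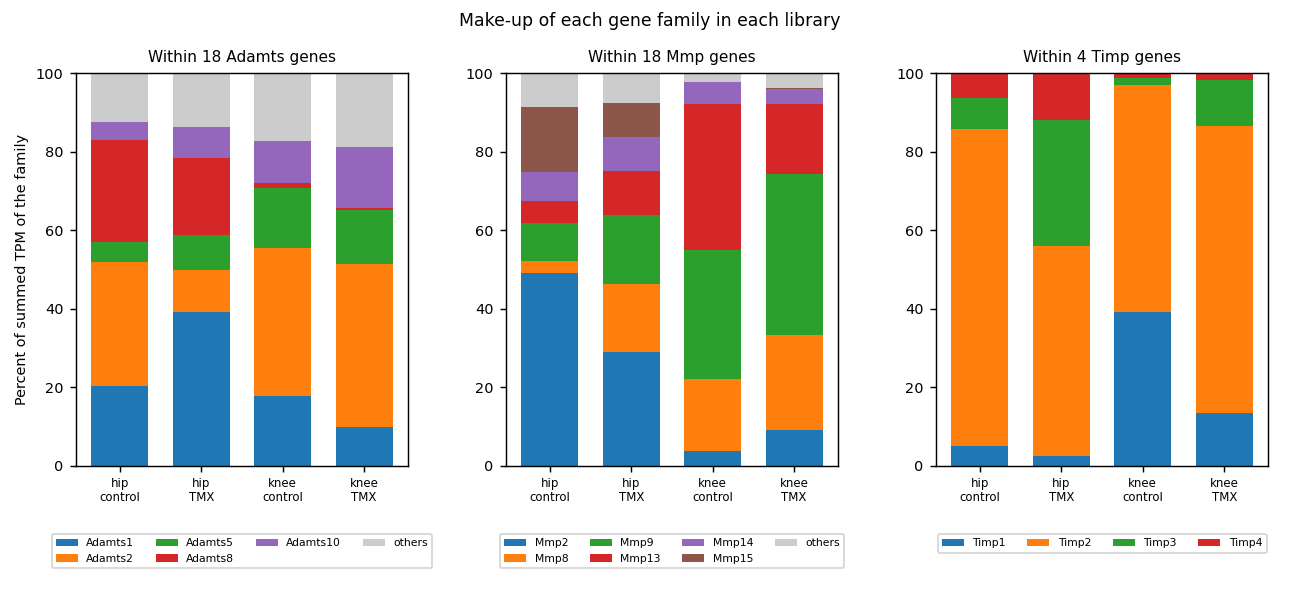
Percent of the summed TPM, by the union of exons, of the Adamts, Mmp and Timp families taken by their leading genes in each of the 4 libraries (1 library per bar), with the remaining genes of a family in grey. Timp3 took 7.76% and 32.1% of the TIMP bar in the hip pair and 1.92% and 11.8% in the knee pair, and Mmp13 took 37.3% and 17.8% of the Mmp bar in the knee.

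Among the remaining proteases, Adam10 was called higher in the hip. This sheddase, which cuts Notch and other surface proteins, had 380 and 827 counts in the hip, a log2 ratio of 1.32 (1.14 to 1.5), and 4273 and 6020 in the knee, a log2 ratio of 0.16 (0.10 to 0.21). After trend removal the hip ratio of Adam10 was 0.32. Adam17, which releases TNF, had 348 and 557 counts in the hip, a log2 ratio of 0.88 (0.68 to 1.07) that was 0.10 with the trend removed, and 1020 and 1609 in the knee, a log2 ratio of 0.32 (0.20 to 0.43). Htra1, a secreted serine protease of cartilage, had 1605 and 800 counts in the hip, a log2 ratio of -0.81 (-0.93 to -0.68), or -0.28 with the trend removed, and 3014 and 3557 in the knee, a log2 ratio of -0.10 (-0.17 to -0.03).

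The trend with GC content was wide in the hip and near 0 in the knee. Over all tested hip genes, the 3917 with the lowest GC content had a median log2 ratio of 0.93 and the 3917 with the highest a median of -0.45. By length, the 3917 shortest had -0.25 and the 3917 longest 0.46. In the knee, groups of 4166 genes had medians of -0.02 and 0.03 by GC content and of -0.34 and 0.22 by length. When the trend was removed, 14 genes were called in the hip, 13 of them among the 20 before, and 9 of the 11 called in the knee were still called. Timp3, Adamts20, Adamts6 and Mmp8 were among those kept in the hip, on the higher side, and Adamts2, Mmp2, Mmp15, Mmp16 and Mmp23 on the lower side. Those lost in the hip were Adamts1, Adamts14, Mmp17, Mmp28, Timp1, Timp2 and Adam10. Adamts10, not called before, was called higher at 1.14.

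**Figure D4:**
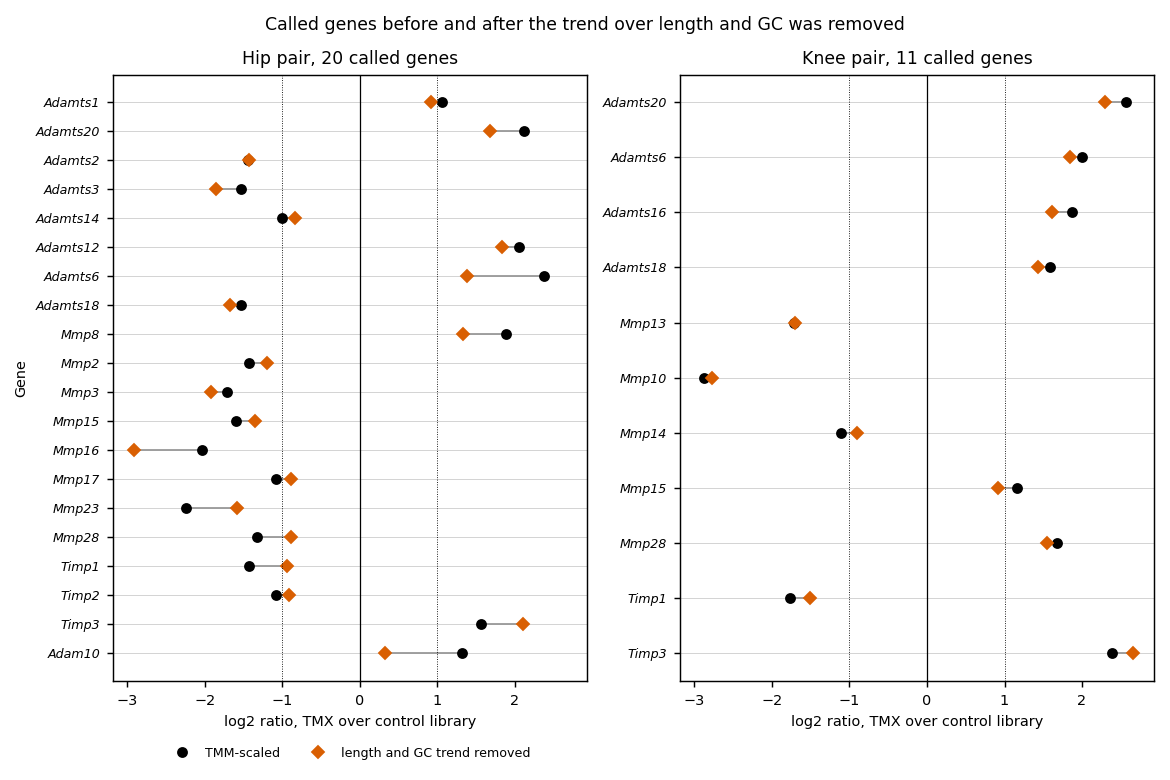
log2 ratios (TMX over control library, 1 library per condition) of the 20 genes called in the hip pair and the 11 called in the knee pair, before (black circles) and after (orange diamonds) removal of the trend over length and GC content, with dotted lines at -1 and 1. Adam10 moved from 1.32 to 0.32 in the hip. Timp3, placed by a median transcript length of 849 bases, moved away from 0 in both panels.

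The joints do not share libraries, so their values can be set side by side. Cre line, age, the kind of control, the tissue taken and the identifiers counted also differ between them and cannot be told apart from the joint. By the study's account the knee samples included bone, and the muscle list held 23.1% of counts in the hip control and 1.67% in the knee control. Of 38 genes with enough counts in both pairs, 21 had the same direction in hip and knee, a share of 55.3% beside 56.6% of all 17594 genes, which is near that of all genes. Called higher in both were Adamts20, Adamts6 and Timp3, which is 7.89% of the 38 genes beside 2.29% of all genes. Timp1 was called lower in both (2.63% beside 1.38%). Adamts18, Mmp15 and Mmp28 were called in opposite directions, 7.89% beside 1.88% of all genes.

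Genes that act with these proteases were read from fixed lists. Their counts stand beside 36.5% of all genes called in the hip and 15.8% in the knee, and for several lists the share called was near these. Among 18 matrix substrates, 3 were called higher and 10 lower in the hip (median -1.28), with Fmod at -2.48, Col1a1 at -2.23 and Col3a1 at -2.22. In the knee 2 of 17 were called higher and 5 lower (median -0.13), with Matn3 at -5.77, Col2a1 at -1.74 and Hapln1 at -1.57. Aggrecan itself, Acan, was called in neither joint, at -0.42 and 0.35. Among 12 other protease inhibitors, Serpinf1 was called lower in both joints (-2.57 and -1.29) and Spock2 higher in both (2.27 and 1.15), and A2m was called lower in the knee (-1.21). In all, 2 of 11 such inhibitors were called higher and 4 lower in the hip, and 1 of 12 higher and 2 lower in the knee.

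ADAMTS-like genes, which encode relatives without a protease domain, were called higher for 4 of 7 and lower for none in the knee (median 1.08), led by Adamtsl3 from 35 to 206 counts, a log2 ratio of 2.20 (1.70 to 2.78), with Adamtsl1 at 1.10 and Adamtsl5 at 1.08. In the hip 1 of 7 was called higher, Adamtsl4 at 1.31, and 2 lower, with Papln at -2.34. Of 8 other ADAM sheddases, 3 were called higher and 1 lower in the hip, with Adam33 at 2.36, Adam8 at 1.83 and Adam9 at 1.60, and 1 higher and none lower in the knee. Among 8 cathepsins none was called in the hip, and Ctsk alone was called in the knee, lower, from 48315 to 22701 counts. Of the serine proteases and plasminogen system, 1 of 9 was called higher and 2 lower in the hip, with Htra4 at 1.22 and Plau at -1.05, and 2 of 9 higher in the knee, Htra4 at 1.59 and Plat at 1.16.

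Procollagen processing enzymes of the astacin type had 1 of 5 called lower in the hip, the enhancer Pcolce at -1.90, and 1 of 4 called higher in the knee. Genes of protease activation and clearance had 2 of 7 called lower in the hip, Pcsk6 at -1.47 and Mrc2 at -1.19, and 1 of 7 in the knee, Sdc4 at -1.16. Among 25 regulators of protease genes, 7 of 24 were called higher and 5 lower in the hip, where Sox11 had a log2 ratio of -2.34, Runx3 of -1.68 and Fos of 1.66. In the knee 3 of 25 were called higher and 3 lower, with Fgf2 at 1.90, Il1b at 1.41, from 287 to 967 counts, and Ddr2 at 1.18. Of 6 family genes outside the 43, none had enough counts in the hip, and in the knee Adamts13 was called lower from 15 to 2 counts while Mmp27 had 24 in each library.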

How the data were processed

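The 4 libraries were poly-A RNA of tissue labelled as articular cartilage, 1 for each joint and condition. The authors deposited whole-number counts of reads per Ensembl gene without normalization. The submitters' processing notes name STAR 2.0, FastQC 0.11.3 and the build mm10, while the study's methods name GRCm39. The hip tables end in HTSeq totals of reads on no gene, which held 25.8% and 24.6% of the listed reads and were left out. The knee tables list other identifiers and no such totals, and the counting program is not given in the sources used here.

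Symbols, positions, lengths and GC content came from the GENCODE annotation of GRCm39, and 91.8% of identifiers matched in the hip and 92.6% in the knee. Counts were scaled within each joint by TMM in edgeR 4.0.16 (R 4.3.3), and size factors of DESeq2 1.42.0 were tried instead. CPM used the total of counts on genes, and TPM the union of annotated exons. Ratios, calls and intervals are as described above, and their 95% Clopper-Pearson intervals cover counting error only. The trend was removed in 2 rounds, by subtracting the median ratio within 20 bins of transcript length, then within 20 bins of GC content. Transcript length was the median over a gene's annotated transcripts, which for Timp3, Mmp9 and Mmp14 is far below the union of exons. Python 3.11.15 was used otherwise (scipy 1.17.1, pandas 2.3.3, numpy 2.4.6, matplotlib 3.10.9). The steps were tested on simulated data. The gene set and the lists of other genes were chosen with earlier results of these data known. Every gene called in either joint, the best-known members and those under 10 counts were named, and up to 3 genes of a list by the size of their ratio where the higher library held 100 counts or more. Acan, Adamts13, Mmp27 and the markers named beside a ratio fall outside that rule and were chosen after their values were seen.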

Additional observations from a re-analysis of the deposited data

Results flagged for a closer look

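For 12 of the 38 genes with enough counts in both pairs, the ratio lay beyond its counting interval in both joints with opposite signs, and 10 of them were called in at least 1 joint. Of the 38, 7 were lower in the hip and higher in the knee, 18.4% beside 10.2% of all genes, and 5 went the other way, 13.2% beside 10.2%. The difference between the joints was not tested, since each joint has 1 library per condition. Age, Cre line, the control, the tissue taken (with bone in the knee, by the study's account) and the identifiers counted differ between the joints too. Higher in the hip TMX library and lower in the knee TMX library, on the log2 scale, were Adamts1 (1.06 in the hip and -0.84 in the knee), Mmp8 (1.88 and -0.23) and Mmp13 (0.32 and -1.71). So were Adamts5 (0.94 and -0.15) and Mmp9 (0.19 and -0.32), which were called in neither joint. The knee ratio of Adamts5 was 0.03 when scaled by library size. Lower in the hip and higher in the knee were Adamts2 (-1.45 and 0.15), Adamts18 (-1.53 and 1.59), Mmp2 (-1.44 and 0.58), Mmp15 (-1.60 and 1.15), Mmp17 (-1.08 and 0.99), Mmp28 (-1.33 and 1.67) and Timp2 (-1.09 and 0.11). After removal of the trend over length and GC content, Mmp13 no longer differed in sign (-0.65 and -1.70), nor did Adamts2 (-1.44 and -0.12) or Timp2 (-0.91 and -0.07). Mmp14 went the other way, lower in both joints before and with opposite signs after (0.23 and -0.90).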

How the results depend on the processing

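The number of genes called was within 1.5 times its reported value under other scalings, another added count, other count minimums and the removed trend. With no minimum size it moved further, to 32 genes in the hip and 31 in the knee. With a limit of 0.58 on the log2 ratio it was 19 in the knee, and 27 in the hip, within 1.5 times. Under library-size scaling the knee split was 10 higher and 3 lower, beside 7 and 4. The median log2 ratio over the set stayed between -0.43 and -0.22 in the hip, and between -0.05 and 0.23 in the knee, where it changed sign with no count minimum and with the trend removed. Of the 29 hip ratios followed under the naming rule, 18 moved with the trend removed and 2 changed sign, and of 30 in the knee 12 moved and 4 changed sign. Outside these, Adamts7 (from -0.14 to 0.01) and Mmp11 (from -0.10 to 0.39) changed sign in the hip. Library-size scaling moved 15 knee ratios and changed 3 signs. The length used for TPM moved the ratio of TIMPs to proteases most in the hip TMX library, from 0.702 to 1.57. No paired analysis was possible because each group has 1 library, and for the same reason no library could be left out. Depth limits genes under 10 counts over a pair, namely Adamts19, Mmp21 and Mmp24 in both joints and Mmp10 and Mmp12 in the hip.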
